A study of Mus musculus with 2 samples.

Results

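Strial intermediate cells are the pigment cells of the stria vascularis, the vascularised epithelium on the lateral wall of the cochlea. They were chosen by their UMI counts (unique molecular identifiers, each standing for 1 captured transcript) in droplet single-cell RNA libraries of mouse cochlea, and those counts are therefore no finding. A barcode was taken as an intermediate cell if it held at least 2 UMIs of Dct and at least 1 UMI of at least 2 of the genes Tyr, Mlana, Kcnj13, Slc45a2, Hpse and Tspan10. It also had to hold no UMI of Kcne1, a marginal cell gene, or Pecam1, an endothelial gene. Only barcodes with at least 500 UMIs, at least 300 genes and at most 20% mitochondrially encoded UMIs were considered. The rule found 1022 cells among 20133 in the Drug-NIHL library and 538 among 17423 in the NIHL library, or 1560 of 37556 in all.

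Both libraries came from the dissected cochlear sensory epithelium of wild-type C57BL/6J mice aged 4 to 6 weeks. The Drug-NIHL library pooled 5 cochleae that were treated with a drug at 90 mg/ml before noise, and the NIHL library pooled 5 untreated cochleae, the opposite ears of those mice, that received the noise alone. The noise was an octave band of 8 to 16 kHz at 105 dB for 2 hours in both groups, and tissue was taken 2 days later and dissociated with trypsin. The drug is written as VPA in the title of the series. Those letters commonly stand for valproic acid, which inhibits histone deacetylases, but no label gives the full name or the route. Whether the drug also reached the NIHL ears is therefore not known. Ears without noise were not analysed here. The stria lies beside the sensory epithelium that was dissected, so the number of its cells in a library also depends on how much lateral wall was carried along.

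Intermediate cells derive from the neural crest and are related to skin melanocytes. They sit between the marginal cells, which secrete potassium into the endolymph, and the basal cells, and their inwardly rectifying potassium channel KIR4.1, the product of Kcnj10, is a source of the endocochlear potential that drives hearing. They also make melanin: tyrosinase, the product of Tyr, catalyses the first steps, DCT (dopachrome tautomerase) converts an intermediate, and MITF with SOX10 and PAX3 switches the pigment genes on.

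Each group is 1 library with no replicates, so no test between the groups was possible. Intervals in parentheses are 95% intervals that cover counting error alone, and reads of 1 cell or 1 ear are not independent of each other. Levels are in CPM, a gene's share of the UMIs scaled to 1000000, from UMIs summed over the intermediate cells of a library, 2291733 UMIs in Drug-NIHL and 1502423 in NIHL, so that 3 UMIs, the limit that a count of 0 allows, correspond to 1.31 CPM in Drug-NIHL and 2.00 CPM in NIHL. Ratios are Drug-NIHL over NIHL. A gene with at least 20 UMIs in both sums together was called measured, and a measured gene was called higher at a ratio of at least 1.5 and lower at a ratio of at most 0.667, which describes size and not a test.

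The Drug-NIHL library held 21773 barcodes with 39939170 UMIs and the NIHL library 18545 barcodes with 38380393 UMIs, and 111 barcode sequences occurred in both. Filtered cells had a median of 1217 UMIs and 6.52% mitochondrially encoded UMIs in Drug-NIHL, against 1168 UMIs and 4.79% in NIHL. Transcripts of intermediate cells were also found outside them: at least 1 Dct UMI was present in 13.1% of the other Drug-NIHL cells (12.6 to 13.6) and in 6.91% of the other NIHL cells (6.53 to 7.30). Those 2498 Drug-NIHL and 1167 NIHL cells had median Dct levels of 1074 CPM in Drug-NIHL and 958 CPM in NIHL. Scrublet, which scores barcodes that look like 2 cells, marked 216 of the Drug-NIHL intermediate cells (21.1%) and 35 of the NIHL intermediate cells (6.51%), against 12.9% of all filtered cells in Drug-NIHL and 4.62% in NIHL. The score above which a cell was marked was set for each library by Scrublet, at 0.164 in Drug-NIHL and 0.264 in NIHL. The marked shares of the libraries are therefore not on the same scale, and results without marked cells leave cells out at unequal limits. The marked cells were kept, and some results without them are given below. Gene ratios given for other choices of cells have 0.5 UMI added to each sum and no interval. Cells called free of markers of other types held fewer than 2 UMIs of each of 5 marker lists: Schwann and satellite glia, endothelial, fibrocyte, macrophage and erythroid. Such a cell could still hold 1 UMI of a list. Markers of neutrophils, neurons, choroid plexus and further types were not used for this choice. In these 234 Drug-NIHL and 128 NIHL cells, some named genes kept only a few UMIs. There, equal counts in both libraries give a log2 ratio of -0.64.

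Intermediate cells made up 5.08% of the Drug-NIHL cells (4.78 to 5.39) and 3.09% of the NIHL cells (2.84 to 3.36), a ratio of 1.64 (1.48 to 1.83). The ratio was smaller when Schwann cells were left out of the denominator. Myelinating Schwann cells, chosen by their myelin genes, made up 30.1% of Drug-NIHL and 44.7% of NIHL cells. Outside them the intermediate cell share was 7.26% in Drug-NIHL (6.83 to 7.70) and 5.58% in NIHL (5.13 to 6.06), a ratio of 1.30 (1.17 to 1.45). Marginal cells, chosen by at least 2 UMIs of Kcne1 and by other marginal cell genes, numbered 67 in Drug-NIHL (0.333%) and 29 in NIHL (0.166%), a ratio of 2.00 (1.28 to 3.21). These few cells also held transcripts of other cell types, as given below. Among cells with at least 1 Dct UMI, 29.0% of Drug-NIHL and 31.6% of NIHL cells met the whole rule (ratio 0.920, 0.828 to 1.02). With every cell thinned to 1000 UMIs, 711 Drug-NIHL cells (5.93%) and 385 NIHL cells (3.85%) met it, a ratio of 1.54 (1.36 to 1.75), and without the cells marked by Scrublet the ratio was 1.52 (1.36 to 1.70). Among cells with at least 1000 genes, 409 Drug-NIHL cells (7.04%) and 293 NIHL cells (5.47%) met the rule, a ratio of 1.29 (1.11 to 1.501). The ratio was above 1 with each of these denominators except the cells with Dct, and the amount of strial tissue in each dissection was not measured.

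The intermediate cells of Drug-NIHL were shallower than those of NIHL. Their median depth was 1705.5 UMIs (505 to 16175) in Drug-NIHL and 2185 UMIs (502 to 24242) in NIHL, and at least 1000 UMIs were found in 842 Drug-NIHL and 466 NIHL cells. The other cells had medians of 1183 UMIs in Drug-NIHL and 1141 UMIs in NIHL, so intermediate cells were deeper than the rest of their own library in both. Median mitochondrially encoded shares were 8.05% in Drug-NIHL and 7.23% in NIHL intermediate cells. Shares of cells with a UMI are therefore also given after thinning each cell to 1000 UMIs, which leaves out 180 Drug-NIHL and 72 NIHL cells.

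Dct and the further markers chose the cells, and their levels are given as a description. Dct stood at 14279 CPM in Drug-NIHL cells and 14267 CPM in NIHL cells. Per cell its median was 16561 CPM in Drug-NIHL and 16977 CPM in NIHL, and 10% of the cells lay below 3317 CPM in Drug-NIHL and below 2110 CPM in NIHL. Tyr was at 541 CPM in Drug-NIHL cells and 508 CPM in NIHL cells. Mlana, whose product MART-1 helps mature the melanosome, had 1429 CPM in Drug-NIHL cells and 1498 CPM in NIHL cells. Slc45a2, a melanosomal transporter, stood at 849 CPM in Drug-NIHL cells and 877 CPM in NIHL cells. These 4 genes were nearly level between the libraries, with ratios from 0.954 for Mlana to 1.06 for Tyr. Hpse, the heparan sulfate-cleaving heparanase, was at 1594 CPM in Drug-NIHL cells and 1667 CPM in NIHL cells. Tspan10, a tetraspanin, had 214 CPM in Drug-NIHL cells and 220.3 CPM in NIHL cells. Kcnj13, the potassium channel KIR7.1, stood at 429.8 CPM in Drug-NIHL cells and 549.8 CPM in NIHL cells, a ratio of 0.782 (0.712 to 0.859), and after thinning it was found in 31.5% (28.3 to 34.7) of Drug-NIHL and 39.7% (35.2 to 44.3) of NIHL cells. Of the 7 rule genes, Kcnj13 was the one whose ratio lay furthest from 1. In the other cells Kcnj13 stood at 5.85 CPM in Drug-NIHL and 12.1 CPM in NIHL, with a ratio further from 1, at 0.482 (0.406 to 0.570).

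**Figure D1:**
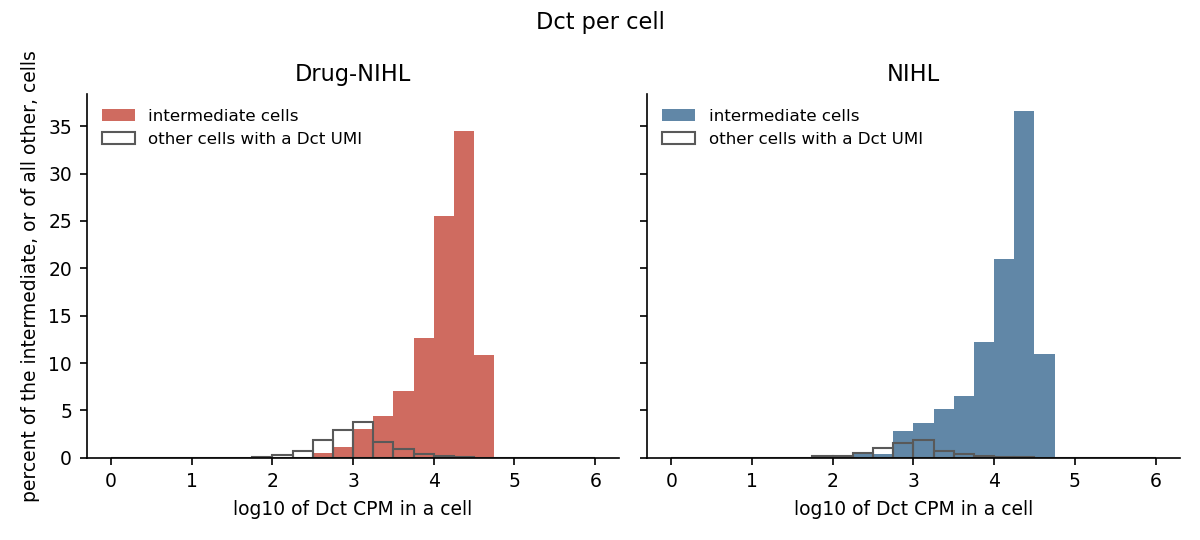
Distribution of Dct per cell on a log10 CPM axis, Drug-NIHL left and NIHL right. Filled bars are intermediate cells, as a percent of the 1022 and 538; open bars are the other cells with a Dct UMI, as a percent of all other cells (13.1% and 6.91% in sum). Most intermediate cells lie near 16561 and 16977 CPM, with a lower tail that reaches the level of the other cells.

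The rule cut through a continuous range at its lower end. In Drug-NIHL 204 cells and in NIHL 98 cells passed with just 2 further markers, and their Dct level was 5615 CPM in Drug-NIHL and 3167 CPM in NIHL, below the level of all intermediate cells. Just outside, 259 Drug-NIHL and 135 NIHL cells with at least 2 Dct UMIs, 1 further marker and neither Kcne1 nor Pecam1 had Dct at 2700 CPM in Drug-NIHL and 1958 CPM in NIHL. The 62 Drug-NIHL and 17 NIHL cells left out for a Kcne1 UMI had Dct at 6260.1 CPM in Drug-NIHL and 5728 CPM in NIHL, beside Kcne1 at 1281 CPM in Drug-NIHL and 1426 CPM in NIHL. Dct took at least 0.5% of the UMIs in 871 Drug-NIHL cells (85.2%) and 445 NIHL cells (82.7%). Cells below that level were kept in all results unless stated.

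Short stretches around the start sites of pigment genes are shown as a description. The rule itself asked for several of its genes in the same cell, so their joint presence is no finding. Tyrp1, which the rule did not use, carries the same letters near its start and was almost absent from the cells. The sequences are from RefSeq on build GRCm38.p6 and run 5′ to 3′ on the gene's own strand from 250 bases before to 50 bases after the annotated start. Capitals mark CATGTG (or CACATG, the same letters on the opposite strand), the core of the M-box that MITF can bind; CACGTG, the E-box form, was searched for as well and was not in these windows. The Dct window lies at chr14:118052197-118052496 on the minus strand, with motifs whose first bases are 232 and 150 bases before the start. The Tyr window lies at chr7:87493463-87493762 (minus), with a motif 21 bases before the start. The Kcnj13 window lies at chr1:87394680-87394979 (minus), with a motif 112 bases before the start. The Tyrp1 window lies at chr4:80833963-80834262 (plus), with a motif 46 bases before the start.
Dct: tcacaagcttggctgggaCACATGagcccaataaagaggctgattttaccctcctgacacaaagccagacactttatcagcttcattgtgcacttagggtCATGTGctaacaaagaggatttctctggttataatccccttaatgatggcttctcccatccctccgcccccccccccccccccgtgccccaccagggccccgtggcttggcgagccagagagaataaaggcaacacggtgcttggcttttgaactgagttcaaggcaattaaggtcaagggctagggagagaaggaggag
Tyr: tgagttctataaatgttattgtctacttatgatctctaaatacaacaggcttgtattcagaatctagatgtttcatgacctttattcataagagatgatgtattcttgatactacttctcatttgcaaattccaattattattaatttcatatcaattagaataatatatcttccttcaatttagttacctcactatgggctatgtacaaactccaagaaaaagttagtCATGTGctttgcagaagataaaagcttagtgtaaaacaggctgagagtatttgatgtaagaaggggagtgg
Kcnj13: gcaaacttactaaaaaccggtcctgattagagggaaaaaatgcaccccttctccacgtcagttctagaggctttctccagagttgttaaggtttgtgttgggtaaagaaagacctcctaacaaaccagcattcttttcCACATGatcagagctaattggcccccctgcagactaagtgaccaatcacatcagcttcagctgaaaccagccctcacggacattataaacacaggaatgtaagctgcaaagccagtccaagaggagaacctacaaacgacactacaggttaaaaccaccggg
Tyrp1: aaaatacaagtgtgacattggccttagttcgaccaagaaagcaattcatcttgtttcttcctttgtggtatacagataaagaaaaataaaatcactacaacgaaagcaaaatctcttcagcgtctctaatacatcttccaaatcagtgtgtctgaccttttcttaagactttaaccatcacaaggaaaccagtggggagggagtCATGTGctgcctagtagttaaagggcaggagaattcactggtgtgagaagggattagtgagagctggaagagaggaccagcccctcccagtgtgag
Of 10 genes looked for, 7 had a window in the table, and 5 of those held a motif: Dct, Tyr, Kcnj13, Tyrp1 and Tspan10, while Hpse and Kcnj10 held none. Mlana, Pmel and Slc45a2 are named only. Over all 27025 gene symbols with a window, 22.7% held at least 1 of these motifs. A match of letters is a description and shows no binding.

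Genes that the rule did not use matched the label in most respects. Of 14 further genes taken as a check of the cell type, 13 were measured. Kcnj10 was found in 77.0% of Drug-NIHL and 74.0% of NIHL intermediate cells, against 9.69% and 6.79% of the other cells. Gpnmb, a glycoprotein of melanosomes and lysosomes, was found in 86.1% of Drug-NIHL and 86.8% of NIHL intermediate cells, against 2.90% and 1.88% of the other cells. Met, the receptor of hepatocyte growth factor, was found in 68.5% of Drug-NIHL and 72.1% of NIHL intermediate cells, and Ednrb, the endothelin receptor of melanocytes, in 63.4% of Drug-NIHL and 65.6% of NIHL intermediate cells. Other genes known from skin melanocytes were low or absent. Pmel, which builds the melanosome's fibrils, was found in 4.31% of Drug-NIHL and 5.02% of NIHL intermediate cells, and Tyrp1, the third enzyme of the tyrosinase family, in 0.294% of Drug-NIHL and 1.86% of NIHL intermediate cells. Oca2, a melanosomal membrane protein, was at 0 in both libraries' intermediate cells, which allows up to 1.31 CPM in Drug-NIHL and 2.00 CPM in NIHL. Kit, the receptor that melanoblasts need for survival, was found after thinning in 0.831% (0.335 to 1.71) of Drug-NIHL and 0.644% (0.133 to 1.87) of NIHL cells. These Kit shares were below the 2.63% and 2.23% of the other cells.

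The 20 genes most particular to the cells by share, leaving the rule genes out, were Pax3, Gsta2, Trpm1, Gpnmb, Adm, Met, Spon1, Scrg1, Cox8b, Cited1, Plxnc1, C2, Agt, Cers6, Mcoln3, Cd44, Gpr37, Syt4, Aph1c and Ednrb, a ranking that follows from how the cells were chosen. Pax3, the neural crest and melanocyte transcription factor, was found in 27.4% of Drug-NIHL and 28.6% of NIHL intermediate cells and in 0.508% and 0.178% of the other cells. Trpm1, an ion channel first studied as melastatin, was found in 20.4% of Drug-NIHL and 24.7% of NIHL intermediate cells and in 0.513% and 0.284% of the others. Adm, the vasodilator peptide adrenomedullin, was found in 39.0% of Drug-NIHL and 42.4% of NIHL intermediate cells. Gsta2 is near-identical to other glutathione transferase genes, so its counts are uncertain. Between the libraries 19 of these 20 genes lay between the limits of the size rule, from 0.814 for Agt to 1.22 for Pax3 (interval 1.03 to 1.45), and the exception was Syt4.

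**Figure D2:**
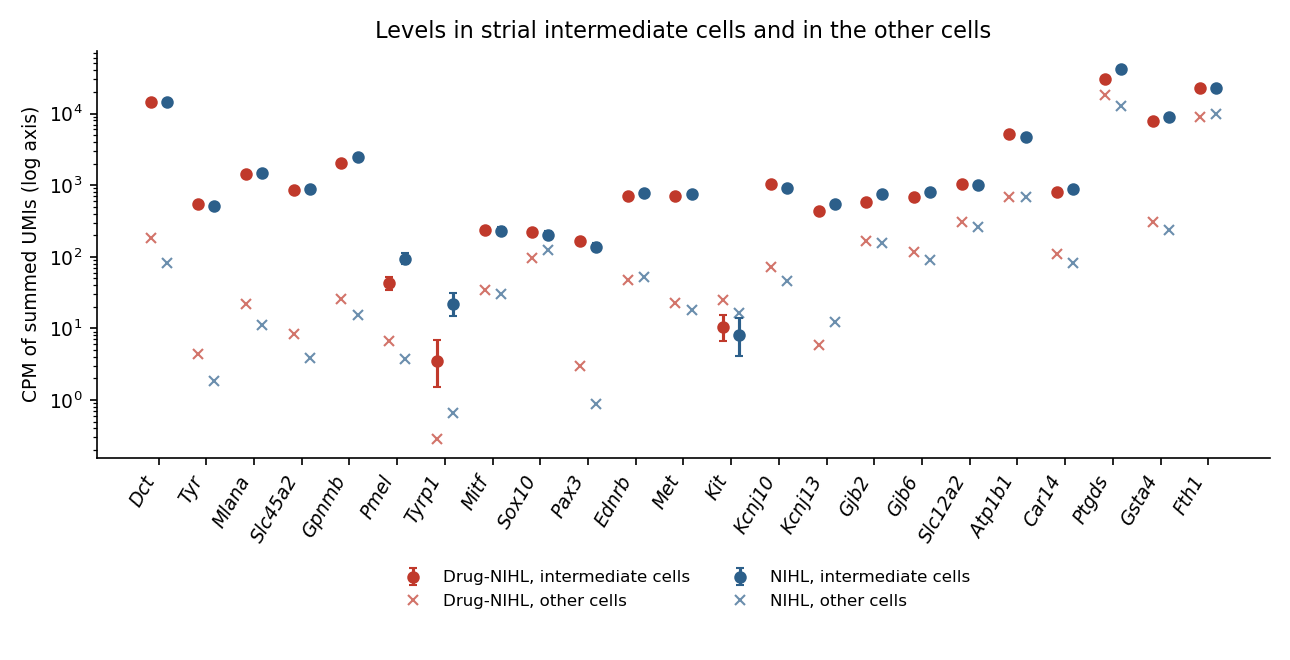
CPM of summed UMIs (log axis) of genes of each role in intermediate cells (circles, with exact 95% counting intervals) and in all other filtered cells (crosses), Drug-NIHL left of NIHL for each gene. Circles of the libraries lie side by side for most genes; Pmel and Tyrp1 lie apart, and Kit is no higher in intermediate cells than in the others.

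Among the genes of melanin and melanosomes, Tyrp1, Pmel and Bloc1s6 lay past the lower limit and none past the upper one. Of 10841 genes measured in the intermediate cells, 992 (9.15%) were higher and 664 (6.12%) lower in Drug-NIHL, with a median log2 ratio of -0.00. The count of each gene list below is to be read beside these shares, which were larger for genes held by few cells. The list for melanin synthesis holds 6 genes that are not all enzymes of that pathway, among them the glycoprotein gene Gpnmb. Of these 6 genes, 0 were higher and 1, Tyrp1, was lower, with a median log2 ratio of -0.08. Tyrp1 was at 3.49 CPM in Drug-NIHL cells and 22.0 CPM in NIHL cells, a ratio of 0.159 (0.0634 to 0.351) from 8 and 33 UMIs. Its log2 ratio turned to 3.06, from a few UMIs, in the 234 Drug-NIHL and 128 NIHL cells free of markers of other types. Gpnmb had 2055 CPM in Drug-NIHL cells and 2484 CPM in NIHL cells, a ratio of 0.827 (0.792 to 0.864). Of 28 measured genes of melanosome structure and transport, 0 were higher and 2 were lower (Pmel and Bloc1s6), with a median of -0.15. Pmel stood at 42.3 CPM in Drug-NIHL cells and 94.5 CPM in NIHL cells, a ratio of 0.448 (0.342 to 0.584), and Bloc1s6, a subunit of a melanosome sorting complex, at 19.2 CPM in Drug-NIHL and 29.3 CPM in NIHL, a ratio whose interval (0.422 to 1.02) includes 1. Slc24a5, a melanosomal cation exchanger, was at 48.0 CPM in Drug-NIHL cells and 69.9 CPM in NIHL cells (ratio 0.687, 0.521 to 0.906), and Cd63, a tetraspanin of melanosomes and late endosomes, at 1900.3 CPM in Drug-NIHL cells and 2281 CPM in NIHL cells (ratio 0.833, 0.796 to 0.871).

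The Tyrp1 and Pmel ratios rested on a few cells. Tyrp1 was found in 3 Drug-NIHL and 10 NIHL intermediate cells, a split that was looked at after the values were seen. Their 8 Drug-NIHL Tyrp1 UMIs were spread as 1, 5 and 2, and the 33 NIHL UMIs ranged from 1 to 9 a cell. These 10 NIHL cells held 96 of the 142 Pmel UMIs of the NIHL intermediate cells, and the 3 Drug-NIHL cells held 9 of 97. Without cells that held Tyrp1, Pmel had 38.5 CPM in Drug-NIHL and 31.5 CPM in NIHL, and its log2 ratio turned to 0.28.

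The cells with Tyrp1 differed from the other intermediate cells in several genes, taken over both libraries. Mlana stood at 5469 CPM in cells with Tyrp1 and at 1405 CPM in cells without, a ratio of 3.89 (3.43 to 4.41). Trpm1 was at 1123 CPM with and 139.6 CPM without (8.04, 5.96 to 10.7). Slc24a5 had 541 CPM with and 50.5 CPM without (10.7, 6.82 to 16.2). Slc7a5, a carrier of large neutral amino acids, stood at 1185 CPM with and 72.9 CPM without (16.3, 12.0 to 21.7). Ddit3, a gene of the integrated stress list, was at 728 CPM with and 58.7 CPM without (12.4, 8.42 to 17.8). These pigment genes, the carrier and Ddit3 were thus higher in cells with Tyrp1 in both libraries. Mlana, like Kcnj13 below, belongs to the rule that chose the cells. Some strial genes went the other way. Atp1b1, a subunit of the sodium and potassium pump, was at 416 CPM with and 5058 CPM without (0.0822, 0.0502 to 0.127). Gsta4, a glutathione transferase, was at 1476 CPM with and 8364 CPM without (0.176, 0.138 to 0.223), and Fth1, the ferritin heavy chain, at 8276 CPM with and 23031 CPM without (0.359, 0.325 to 0.396). Kcnj10 stood at 478 CPM with and 989 CPM without (0.484, 0.306 to 0.727), and Mitf at 270.3 CPM with and 233 CPM without, with an interval (0.614 to 1.99) that includes 1. Other strial genes were not lower: Kcnj13 had 957 CPM with and 471 CPM without (2.03, 1.48 to 2.72), and the intervals of Gjb2, a gap junction connexin (1.17, 0.817 to 1.62), and Met (1.06, 0.743 to 1.46) include 1. Depth differed as well. The median was 1393 UMIs in cells with Tyrp1 and 1707 without in Drug-NIHL, and 3886.5 with and 2171.5 without in NIHL. The 13 cells with Tyrp1 share 2 libraries, and the intervals do not cover differences between cells or ears.

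**Figure D3:**
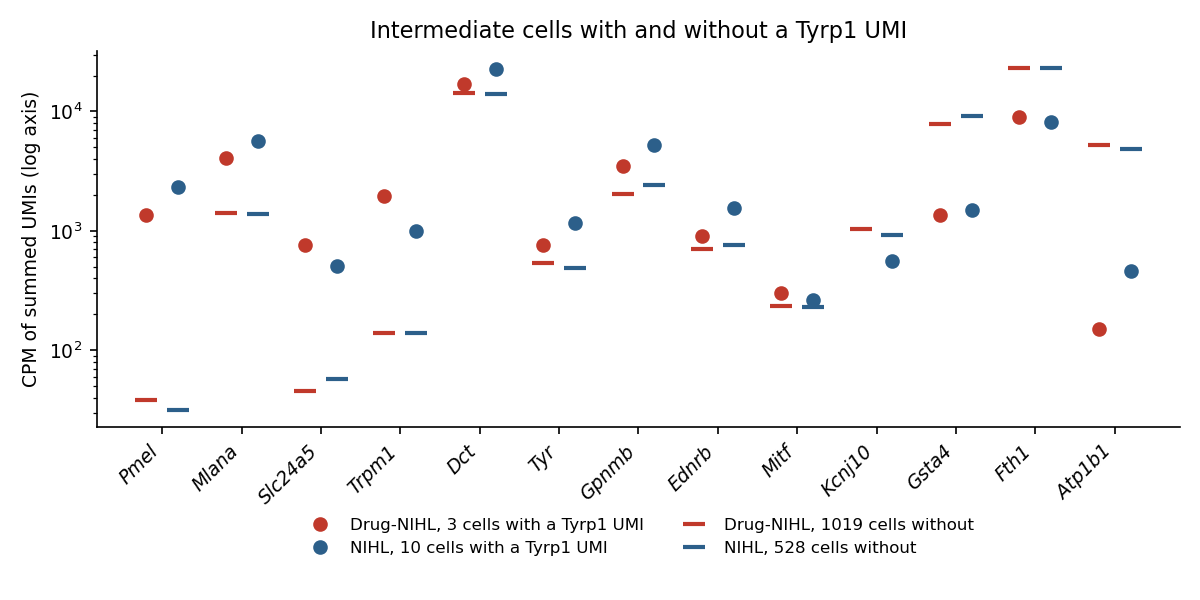
CPM of summed UMIs (log axis) in intermediate cells with a Tyrp1 UMI (circles; 3 Drug-NIHL and 10 NIHL cells) and without (bars; 1019 and 528 cells), Drug-NIHL left of NIHL; Kcnj10 was at 0 in the 3 Drug-NIHL cells and has no circle there. Pmel, Mlana, Slc24a5 and Trpm1 are higher, and Gsta4, Fth1 and Atp1b1 lower, in cells with Tyrp1 in both libraries.

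The transcription factors that define the pigment lineage were close between the libraries. Of 12 measured, 1 was higher and 0 lower, with a median log2 ratio of 0.09. Mitf was at 236 CPM in Drug-NIHL cells and 231 CPM in NIHL cells, a ratio of 1.02 (0.890 to 1.17). Sox10 was at 225 CPM in Drug-NIHL cells and 202 CPM in NIHL cells (ratio 1.11, 0.965 to 1.29), and Pax3 at 168 CPM in Drug-NIHL cells and 137 CPM in NIHL cells (ratio 1.22, 1.03 to 1.45). Mitf and Sox10 have intervals that include 1. The gene past the limit was Tfe3, a relative of Mitf, at 21.4 CPM in Drug-NIHL and 14.0 CPM in NIHL, with an interval (0.900 to 2.69) that includes 1. Sox9 stood at 71.1 CPM in Drug-NIHL cells and 101.2 CPM in NIHL cells (ratio 0.703, 0.560 to 0.883), and Id3, an inhibitor of helix-loop-helix factors, at 396 CPM in Drug-NIHL cells and 475 CPM in NIHL cells (ratio 0.834, 0.755 to 0.921).

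Receptors and ligands of melanocytes gave 3 higher and 0 lower of 17 measured, with a median log2 ratio of -0.09. Met was at 707 CPM in Drug-NIHL cells and 759 CPM in NIHL cells (ratio 0.932, 0.864 to 1.01). Ednrb was at 706 CPM in Drug-NIHL cells and 787 CPM in NIHL cells (ratio 0.897, 0.832 to 0.968), and Kit at 10.5 CPM in Drug-NIHL cells and 7.99 CPM in NIHL cells (ratio 1.31, 0.631 to 2.88). The intervals of Met and Kit include 1. The 3 past the limit were ligands that few of the cells held. Kitl, the ligand of KIT, stood at 29.2 CPM in Drug-NIHL cells and 14.0 CPM in NIHL cells (ratio 2.09, 1.26 to 3.596) in 4.79% of Drug-NIHL and 3.35% of NIHL intermediate cells, and at a ratio of 1.15 in cells free of markers of other types. Edn1, endothelin 1, was at 7.85 CPM in Drug-NIHL and 2.66 CPM in NIHL (ratio 2.95, 0.972 to 12.0), with an interval that includes 1 and a log2 ratio of -0.12 after thinning. Nrg1, neuregulin 1, was at 8.29 CPM in Drug-NIHL and 2.00 CPM in NIHL (ratio 4.15, 1.22 to 21.9, from 19 and 3 UMIs), and its log2 ratio turned to -2.29 in the cells with Dct at least 0.5% of UMIs. Vegfa, an endothelial growth factor, stood at 48.0 CPM in Drug-NIHL cells and 67.9 CPM in NIHL cells (ratio 0.707, 0.535 to 0.935).

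Genes of strial ion transport, the function that sets intermediate cells apart from other pigment cells, had a median log2 ratio of 0.01. Of 21 measured, 4 were higher and 0 lower, beside 9.15% higher and 6.12% lower among all measured genes. Kcnj10 was at 1026 CPM in Drug-NIHL cells and 916 CPM in NIHL cells, a ratio of 1.12 (1.05 to 1.20), against 1.57 in the other cells, where it was at 72.0 CPM in Drug-NIHL and 46.0 CPM in NIHL. Atp1b1, the pump subunit named above, stood at 5178 CPM in Drug-NIHL cells and 4726 CPM in NIHL cells (ratio 1.10, 1.06 to 1.13). Slc12a2, the sodium, potassium and chloride cotransporter, was at 1022 CPM in Drug-NIHL cells and 1020.4 CPM in NIHL cells (ratio 1.001, 0.938 to 1.07). Atp1b1 and the cotransporter thus differed by 10% or less between the libraries. Gjb2 and Gjb6, the connexins 26 and 30 of the gap junctions that couple strial and lateral wall cells, were both below 1. Gjb2 was at 573 CPM in Drug-NIHL cells and 745 CPM in NIHL cells (ratio 0.769, 0.709 to 0.833) and Gjb6 at 679.8 CPM in Drug-NIHL cells and 810.0 CPM in NIHL cells (ratio 0.839, 0.778 to 0.905), against ratios of 1.07 and 1.30 in the other cells. Car2 and Car14, carbonic anhydrases, stood at 899 CPM in Drug-NIHL and 754 CPM in NIHL (ratio 1.19, 1.11 to 1.28) and 812 CPM in Drug-NIHL and 887 CPM in NIHL (ratio 0.916, 0.854 to 0.984).

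The 4 ion transport genes past the limit were Kcnk1, Gja1, Slc26a4 and Aqp1, which fewer than 7% of the cells held. Kcnk1, a potassium leak channel, was at 53.7 CPM in Drug-NIHL cells and 33.3 CPM in NIHL cells (ratio 1.61, 1.15 to 2.29), and its log2 ratio turned to -0.16 after thinning. Slc26a4, the anion exchanger pendrin of spindle and root cells, had 17.5 CPM in Drug-NIHL and 5.99 CPM in NIHL (ratio 2.91, 1.39 to 6.83), with a ratio of 1.59 without the cells marked by Scrublet and 10.9 in cells free of markers of other types. Aqp1, a water channel, had 16.6 CPM in Drug-NIHL and 7.32 CPM in NIHL (ratio 2.26, 1.13 to 4.91). In the cells free of such markers its counts were equal in both libraries, which gave a log2 ratio of -0.64. Among the 12 measured pump subunits and FXYD regulators 2 were higher and 0 lower. Of these, the regulator Fxyd5 is described. It was at 59.3 CPM in Drug-NIHL and 28.6 CPM in NIHL (ratio 2.07, 1.46 to 2.99), with a log2 ratio of -0.16 in the 234 Drug-NIHL and 128 NIHL cells free of markers of other types. Fxyd3 and Fxyd2 had 1686 CPM in Drug-NIHL and 1847 CPM in NIHL (ratio 0.913, 0.869 to 0.959) and 37.5 CPM in Drug-NIHL and 53.2 CPM in NIHL (ratio 0.705, 0.514 to 0.968), and without the cells marked by Scrublet the Fxyd2 ratio was 0.261.

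Set beside marginal cells, the 67 Drug-NIHL and 29 NIHL cells of the neighbouring layer, the intermediate cells held another part of the transport equipment. Slc12a2 stood at 4796 CPM in Drug-NIHL and 4526 CPM in NIHL marginal cells, several times its level in intermediate cells. Atp1b1 was at 345 CPM in Drug-NIHL and 372 CPM in NIHL marginal cells, below its level in intermediate cells. Kcnj10 stood at 15.5 CPM in Drug-NIHL and 20.7 CPM in NIHL marginal cells, and Gjb6 at 30.9 CPM in Drug-NIHL and 0 in NIHL marginal cells. The marginal cells also held transcripts of other cell types. Ttr, a choroid plexus transcript, stood at 0 in Drug-NIHL and 12296 CPM in NIHL marginal cells. Camp, a neutrophil gene, stood at 1453 CPM in Drug-NIHL and 0 in NIHL marginal cells. The differences between marginal and intermediate cells follow in part from how both sets of cells were chosen, and no test was made.

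Levels also varied among the intermediate cells of a library, for some genes in the same direction in both. In thinned cells, Dct was at 21166 CPM in the 265 Drug-NIHL cells with a Kcnj13 UMI and at 15199 CPM in the 577 without; in NIHL the values were 23060 CPM in 185 cells with and 13979 CPM in 281 without. Kcnj13 belongs to the rule, so a cell without it had to hold other markers. Ednrb was at 1177 CPM with Kcnj13 and 629 CPM without in Drug-NIHL, and at 1422 CPM with and 669 CPM without in NIHL. Ednrb and Dct were thus higher in cells with Kcnj13 in both libraries. Fth1 was at 23223 CPM with Kcnj13 and 22759 CPM without in Drug-NIHL, and at 21984 CPM with Kcnj13 and 24388 CPM without in NIHL. Ptgds was at 29638 CPM with Kcnj13 and 30224 CPM without in Drug-NIHL, and at 39043 CPM with Kcnj13 and 36139 CPM without in NIHL. The direction was thus not shared by the libraries for Fth1 and Ptgds. Across the 842 Drug-NIHL and 466 NIHL thinned cells, Pearson's r between Dct and Atp1b1 was 0.59 in Drug-NIHL and 0.61 in NIHL, between Dct and Gpnmb 0.57 and 0.58, and between Dct and Gsta4 0.52 and 0.54. The cells of a library share its free RNA and its ears, and these r values describe the cells only.

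**Figure D4:**
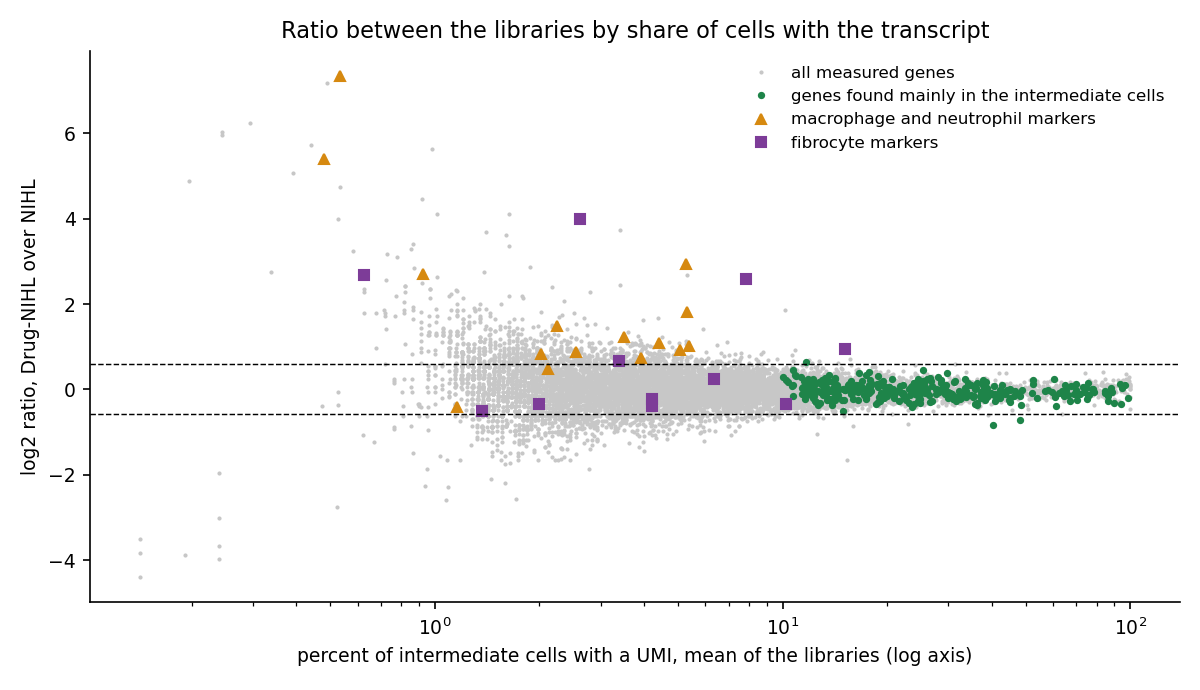
Log2 ratio of Drug-NIHL over NIHL (0.5 UMI added to each sum) against the mean percent of intermediate cells with a UMI (log axis) for 10841 measured genes (grey). Green points are 343 genes found mainly in intermediate cells, triangles macrophage and neutrophil markers, squares fibrocyte markers; dashed lines are the limits of the size rule. Green points gather near 0, and most points past the limits lie at the left, in genes held by few cells.

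Genes past the limits were mostly those held by few cells. Of 4535 measured genes found in under 5% of the intermediate cells of both libraries, 873 (19.3%) were higher and 484 (10.7%) lower. Of 2796 genes found in 5% to 10% of the cells of at least 1 library, 104 (3.72%) were higher and 151 (5.40%) lower. Of 1991 genes found in 10% to 20% of the cells of at least 1 library, 14 (0.703%) were higher and 24 (1.21%) lower, and of 1519 genes found in 20% or more, 1 (0.0658%) was higher and 5 (0.329%) lower. Those 6 genes, named after their values were seen, were Mt3 in the first direction and Cst6, Syt4, Gsn, Cd9 and Ttr in the second. With genes of at least 200 UMIs in both sums together, 44 of 2818 (1.56%) were higher and 20 (0.71%) lower. Ratios of genes with few UMIs spread more by counting alone, and that part was not separated from others.

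A set of 343 genes found mainly in the intermediate cells, chosen after the values were seen, also held few genes past the limits. These genes were found in at least 10% of the intermediate cells and at 2 times the share of the other cells or more, in both libraries. The ratio lay between the limits for 340 of them, with 1 higher (0.292%) and 2 lower (0.583%). All genes found in 20% or more of the cells gave 0.0658% and 0.329%, and those in 10% to 20% gave 0.703% and 1.21%. The 343 genes had a median log2 ratio of -0.04 and a central 90% from -0.30 to 0.25. Of the 343, 145 had a ratio above 1 and 198 below 1.

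Cst6, cystatin E/M, an inhibitor of lysosomal cysteine proteases, was lower in Drug-NIHL. It stood at 312 CPM in Drug-NIHL cells and 553 CPM in NIHL cells, a ratio of 0.565 (0.510 to 0.625), against 0.771 in the other cells. After thinning it was found in 23.04% (20.2 to 26.0) of Drug-NIHL and 32.0% (27.8 to 36.4) of NIHL cells. Over 21 settings its ratio ran from 0.411 to 0.591. Syt4, a synaptotagmin of vesicle release, was at 485 CPM in Drug-NIHL cells and 793 CPM in NIHL cells, a ratio of 0.612 (0.564 to 0.665), with 0.849 in the other cells. Its ratio ran from 0.551 to 0.671 over the same settings, and after thinning it was found in 35.0% (31.8 to 38.4) of Drug-NIHL and 39.5% (35.0 to 44.1) of NIHL cells, shares whose intervals overlap. Ptprm, a receptor tyrosine phosphatase of cell contacts, was the gene that was higher, at 66.3 CPM in Drug-NIHL cells and 42.6 CPM in NIHL cells (ratio 1.56, 1.16 to 2.12), and ran from 1.32 to 1.86.

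By the looser rule, under which a gene needed the share in the library where it was higher, Kdsr, an enzyme of sphingolipid synthesis, was higher as well, at 58.0 CPM in Drug-NIHL and 36.6 CPM in NIHL (ratio 1.59, 1.15 to 2.21). Ooep (ratio 0.661, 0.513 to 0.850), Map2k1 (ratio 0.599, 0.420 to 0.854), Tmem140 (ratio 0.634, 0.469 to 0.857), Zfyve21 (ratio 0.642, 0.480 to 0.859) and Plekho2 (ratio 0.645, 0.447 to 0.931) were lower by ratio. Map2k1 encodes the kinase MEK1. Its share after thinning was 2.26% (1.36 to 3.50) of Drug-NIHL and 4.08% (2.47 to 6.29) of NIHL cells, and these shares overlap in their intervals.

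Further genes, named in part after their values were seen, lay between the limits or past them as follows. Ptgds, prostaglandin D synthase, had 29994 CPM in Drug-NIHL cells and 41186 CPM in NIHL cells, a ratio of 0.728 (0.720 to 0.736). It was also found in 78.4% of the other Drug-NIHL cells and 56.5% of the other NIHL cells, with a ratio there of 1.42, and in the cells with Dct at least 0.5% of UMIs the ratio was 0.878. Gsta4 stood at 7795 CPM in Drug-NIHL cells and 9011 CPM in NIHL cells (ratio 0.865, 0.846 to 0.885), against 1.32 in the other cells. Ptgds and Gsta4 thus lay below 1 in intermediate cells and above 1 in the others. Selenop, the selenium carrier of plasma, was at 2629 CPM in Drug-NIHL cells and 3328 CPM in NIHL cells (ratio 0.790, 0.761 to 0.820). Ctsb, the lysosomal protease cathepsin B, was at 1594 CPM in Drug-NIHL cells and 1995 CPM in NIHL cells (ratio 0.799, 0.761 to 0.839), and Mgll, monoglyceride lipase, at 985 CPM in Drug-NIHL and 1186 CPM in NIHL (ratio 0.830, 0.78 to 0.884). On the other side of 1 were Slc38a10, an amino acid transporter, at 142 CPM in Drug-NIHL and 103 CPM in NIHL (ratio 1.37, 1.13 to 1.68), and Sort1, the sorting receptor sortilin, at 173 CPM in Drug-NIHL and 133 CPM in NIHL (ratio 1.30, 1.09 to 1.55).

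**Figure D5:**
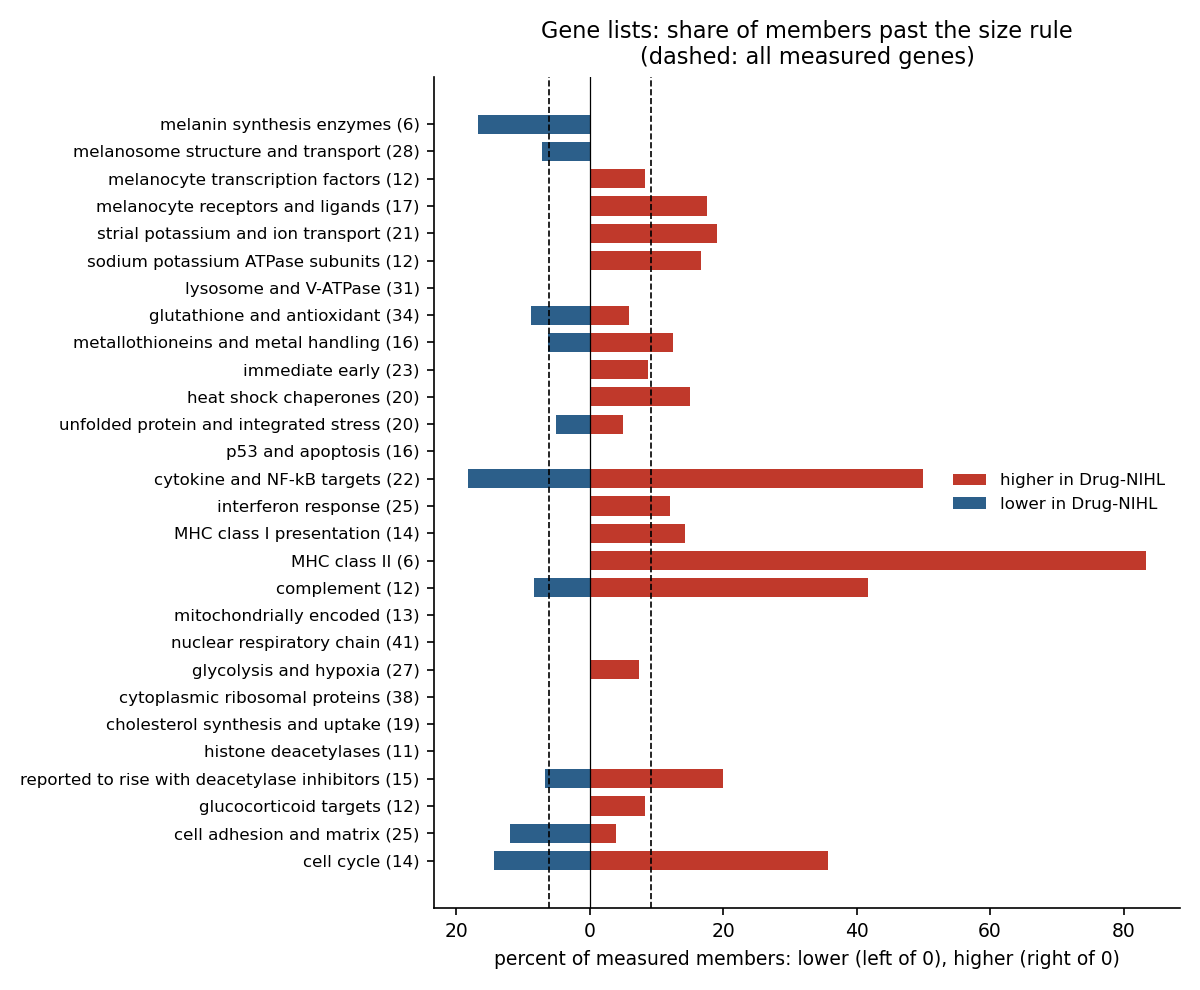
Percent of the measured members of each gene list (number measured in parentheses) that were lower (left of 0) or higher (right of 0) in Drug-NIHL by the size rule; dashed lines are the 6.12% and 9.15% of all measured genes. MHC class II, cytokine, complement and cell cycle lists extend furthest to the right, and several lists of the cells' own metabolism have no bar.

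Lists of common cell functions had few or no genes past the limits. Lysosome and V-ATPase genes gave 0 of 31 past the limits in either direction (median log2 -0.06). The same count of 0 held for 41 nuclear respiratory chain genes (median 0.00), 38 cytoplasmic ribosomal protein genes (-0.03), 19 genes of cholesterol synthesis and uptake (0.07) and 16 genes of p53 and apoptosis (0.10). Among all genes found in 20% or more of the cells of at least 1 library, 0.0658% were higher and 0.329% lower. A count of 0 is therefore usual for widely held genes. Of 27 glycolysis and hypoxia genes 2 were higher and 0 lower, of 12 glucocorticoid targets 1 and 0, of 20 unfolded protein and integrated stress genes 1 and 1, and of 34 glutathione and antioxidant genes 2 and 3. Gpx3, a secreted glutathione peroxidase, stood at 62.0 CPM in Drug-NIHL cells and 121 CPM in NIHL cells (ratio 0.511, 0.408 to 0.641) in 5.58% of Drug-NIHL and 7.25% of NIHL intermediate cells. In the cells with Dct at least 0.5% of UMIs its ratio was 0.892, and without the cells marked by Scrublet 0.327. Aldoc, aldolase C, was at 60.7 CPM in Drug-NIHL and 36.6 CPM in NIHL (ratio 1.66, 1.20 to 2.31), and Ern1, the stress sensor IRE1, at 13.1 CPM in Drug-NIHL and 2.66 CPM in NIHL (ratio 4.92, 1.73 to 19.2).

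Mitochondrially encoded genes were higher in sum in Drug-NIHL intermediate cells without passing the limit. The 13 genes had a median log2 ratio of 0.23, against 0.39 in the other cells, and 0 passed it. Their sum was 71279 CPM in Drug-NIHL and 63566 CPM in NIHL. mt-Nd3, a subunit of complex I, stood at 1220.0 CPM in Drug-NIHL cells and 921 CPM in NIHL cells (ratio 1.33, 1.24 to 1.41). Nuclear subunits of the same chain stood at 29237 CPM in Drug-NIHL and 28666 CPM in NIHL in sum. The share of mitochondrial UMIs was higher in Drug-NIHL over all filtered cells too, and its part in this result was not tested.

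Genes of histone deacetylases and genes reported to rise with their inhibitors were also compared. Of 11 measured histone deacetylase genes 0 passed the limits in either direction, with a median log2 ratio of 0.14. Hdac1 was at 54.1 CPM in Drug-NIHL cells and 39.3 CPM in NIHL cells (ratio 1.38, 1.003 to 1.91), Hdac2 at 44.1 CPM in Drug-NIHL and 39.9 CPM in NIHL (ratio 1.10, 0.794 to 1.55) and Hdac3 at 27.9 CPM in Drug-NIHL and 33.9 CPM in NIHL (ratio 0.823, 0.561 to 1.21). Of 15 measured genes reported to rise with deacetylase inhibitors, 3 were higher and 1 was lower, with a median of 0.11. Hspa1a and Hspa1b, near-identical copies of the inducible HSP70 gene whose counts cannot be fully told apart, had 97.7 CPM in Drug-NIHL and 55.2 CPM in NIHL (ratio 1.77, 1.37 to 2.30) and 32.7 CPM in Drug-NIHL and 16.6 CPM in NIHL (ratio 1.97, 1.24 to 3.23). Tgm2, a transglutaminase, stood at 15.7 CPM in Drug-NIHL and 9.32 CPM in NIHL (ratio 1.69, 0.887 to 3.38), with an interval that includes 1. In cells free of markers of other types its counts were equal in both libraries, a log2 ratio of -0.64. Gsn, the actin-severing protein gelsolin, was lower, at 241 CPM in Drug-NIHL cells and 421 CPM in NIHL cells (ratio 0.574, 0.511 to 0.644), and its log2 ratio turned to 0.33 in the cells with Dct at least 0.5% of UMIs. Clu, clusterin, was at 479.6 CPM in Drug-NIHL and 608 CPM in NIHL (ratio 0.789, 0.722 to 0.862), beside a ratio of 1.72 in the other cells and 2.42 in the intermediate cells with Dct at least 0.5% of UMIs.

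Of 20 heat shock chaperones 3 were higher and 0 lower, the third being Dnajb1 at 69.4 CPM in Drug-NIHL and 42.6 CPM in NIHL (ratio 1.63, 1.21 to 2.21). Cryab, the small chaperone alpha B-crystallin, had 1077 CPM in Drug-NIHL cells and 1396 CPM in NIHL cells (ratio 0.772, 0.728 to 0.819), near the ratio of 0.766 in the other cells. Immediate early genes, which are also switched on by dissociation, gave 2 higher and 0 lower of 23. Fos stood at 1481 CPM in Drug-NIHL cells and 1468 CPM in NIHL cells (ratio 1.01, 0.956 to 1.07), and Fosb at 347 CPM in Drug-NIHL and 233 CPM in NIHL (ratio 1.49, 1.31 to 1.69). Metallothioneins and genes of metal handling gave 2 higher and 1 lower of 16, with a median of 0.20. Mt3, a metallothionein best known in neurons, was at 577 CPM in Drug-NIHL cells and 383 CPM in NIHL cells (ratio 1.51, 1.37 to 1.67) in 32.7% of Drug-NIHL and 30.1% of NIHL intermediate cells, and in 43.5% and 44.9% of the other cells. After thinning the Mt3 ratio was 1.24. Fth1 was at 22885 CPM in Drug-NIHL cells and 22780.5 CPM in NIHL cells (ratio 1.005, 0.991 to 1.02), and Trf, transferrin, at 302 CPM in Drug-NIHL and 209 CPM in NIHL (ratio 1.44, 1.26 to 1.65), against 1.67 in the other cells.

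Genes of the cytokine and MHC class II lists that passed the limits were found in few intermediate cells, at most in 8.61% of Drug-NIHL and 5.95% of NIHL cells. Of 22 measured cytokine and NF-kB target genes 11 were higher and 4 lower, with a median log2 ratio of 0.56. Cxcl2, a chemokine that attracts neutrophils, stood at 304 CPM in Drug-NIHL cells and 22.6 CPM in NIHL cells (ratio 13.4, 9.53 to 19.6) in 4.79% of Drug-NIHL and 2.04% of NIHL intermediate cells, and its ratio was 2.35 in cells free of markers of other types. Lcn2, lipocalin 2, was at 74.6 CPM in Drug-NIHL cells and 3.99 CPM in NIHL cells (ratio 18.7, 8.41 to 51.6), from 171 and 6 UMIs, and its ratio in the other cells was 6.00. In intermediate cells free of markers of other types the Lcn2 ratio was 1.92. Cxcl1 had 33.2 CPM in Drug-NIHL and 59.9 CPM in NIHL (ratio 0.554, 0.402 to 0.760), and its log2 ratio turned to 1.68 in cells free of markers of other types. MHC class II genes, which present antigen on dendritic cells and macrophages, gave 5 higher and 0 lower of 6 (median 2.81). H2-Ab1 stood at 36.2 CPM in Drug-NIHL and 1.33 CPM in NIHL, from 83 and 2 UMIs, a ratio of 27.2 (7.30 to 228). It was found in 1.47% of Drug-NIHL and 0.372% of NIHL intermediate cells. In cells free of markers of other types its log2 ratio was -0.64, the value that equal counts give. Cd74, the invariant chain, was at 74.6 CPM in Drug-NIHL and 9.98 CPM in NIHL (ratio 7.47, 4.41 to 13.6). Without cells holding macrophage or neutrophil markers the ratio was 3.52 for Cd74 and 1.83 for H2-Ab1, and in cells free of markers of other types that of Cd74 was 1.92.

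Complement genes gave 5 higher and 1 lower of 12, with a median of 0.18. Among the higher ones were C1qa, C1qb and C1qc, the subunits of C1q, and C1qa had 138 CPM in Drug-NIHL and 64.6 CPM in NIHL (ratio 2.14, 1.70 to 2.71). The log2 ratio of C1qc turned to -0.95 without cells holding macrophage or neutrophil markers. C4b, which 19.6% of Drug-NIHL and 27.7% of NIHL intermediate cells held, was at 107 CPM in Drug-NIHL cells and 142 CPM in NIHL cells (ratio 0.754, 0.625 to 0.910). C1ra had 3.05 CPM in Drug-NIHL and 8.65 CPM in NIHL (ratio 0.353, 0.119 to 0.952), with a log2 ratio of 0.94, from a few UMIs, in cells free of markers of other types. Interferon response genes gave 3 higher and 0 lower of 25, with a median of 0.00. Ifi27l2a, which 97.3% of Drug-NIHL and 95.4% of NIHL intermediate cells held, stood at 5922 CPM in Drug-NIHL cells and 5499.8 CPM in NIHL cells (ratio 1.08, 1.05 to 1.11). MHC class I presentation gave 2 higher and 0 lower of 14, with B2m at 538 CPM in Drug-NIHL and 626 CPM in NIHL (ratio 0.861, 0.790 to 0.938) and H2-K1 at 175 CPM in Drug-NIHL and 222 CPM in NIHL (ratio 0.785, 0.677 to 0.911).

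Markers of immune cells moved with these lists. Of 10 measured macrophage markers 9 were higher and 0 lower (median log2 1.05), against a median of 0.01 in the other cells. Their sum was 926 CPM in Drug-NIHL and 333 CPM in NIHL intermediate cells, and at least 2 macrophage UMIs were found in 86 Drug-NIHL cells (8.41%) and 24 NIHL cells (4.46%). Lyz2, the lysozyme of macrophages and neutrophils, was at 279 CPM in Drug-NIHL cells and 35.9 CPM in NIHL cells (ratio 7.76, 5.87 to 10.4). Its ratio was 2.74 without cells holding macrophage or neutrophil markers and 1.92 in cells free of markers of other types. Neutrophil markers, 4 of 5 higher, were at 1475 CPM in Drug-NIHL and 635 CPM in NIHL in sum, with at least 2 UMIs in 19 Drug-NIHL (1.86%) and 7 NIHL (1.30%) cells and Cxcr2 at 0 in both. Without the cells holding at least 2 macrophage or neutrophil UMIs, which left 930 Drug-NIHL and 512 NIHL cells, the median of the cytokine list was 0.22 and the Cxcl2 ratio 6.74. Without the cells marked by Scrublet the median of the neutrophil list turned to -1.87.

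The genes furthest from 1 by interval bound were mostly of this kind. Camp, Ltf and Ngp, granule proteins of neutrophils, stood at 161, 48.0 and 69.8 CPM in Drug-NIHL intermediate cells and had 1, 0 and 2 UMIs in NIHL ones, where a count of 0 allows 2.00 CPM. Against so few NIHL UMIs the ratio of Camp was 243 (43.3 to 9606) and that of Ngp 52.4 (14.3 to 437). In Drug-NIHL, 1 cell held 61.1% of the Camp UMIs, 49.1% of those of Ltf and 58.1% of those of Ngp. Without cells holding macrophage or neutrophil markers the log2 ratio of Ngp was -0.51, from equal counts in both libraries, and the ratio of Camp was 3.52. Without the cells marked by Scrublet the ratio was 2.47 for Camp and 1.48 for Ngp, and in cells free of markers of other types it was 1.92 for each, against 162 for Camp and 42.1 for Ngp in all intermediate cells. Mmp13, a collagenase, Tac1, the substance P precursor, and Penk, proenkephalin, had 57, 49 and 47 UMIs in Drug-NIHL and 0 in NIHL, in under 1% of the cells. With Dct at least 0.5% of UMIs the ratio was 1.85 for Tac1 and 9.23 for Penk, against 64.9 for Tac1 and 62.3 for Penk in all intermediate cells. In the other direction, Prtn3, Elane, Mpo, Ctsg, Cd209f and Cxcl13 each had all of their NIHL UMIs in 1 cell, which was the same cell for the first 4 of these genes and another cell for Cd209f and for Cxcl13. Prtn3, Elane and Mpo, granule enzymes of early myeloid cells, were at 5.67 CPM in Drug-NIHL and 91.9 CPM in NIHL, at 9.16 CPM in Drug-NIHL and 118 CPM in NIHL and at 7.42 CPM in Drug-NIHL and 61.2 CPM in NIHL. Without the top cell of each gene their log2 ratios turned to 2.56, 3.64 and 1.71. Ctsg had 2.62 CPM in Drug-NIHL and 39.9 CPM in NIHL (ratio 0.0656, 0.0231 to 0.151). Cd209f stood at 0.873 CPM in Drug-NIHL and 22.6 CPM in NIHL (ratio 0.0386, 0.00449 to 0.150) and Cxcl13 at 1.31 CPM in Drug-NIHL and 22.0 CPM in NIHL (ratio 0.0596, 0.0117 to 0.190). The log2 ratio of Cxcl13 was -4.25 without the cells holding macrophage or neutrophil markers and 0.98 without its top cell. Crhbp, which binds corticotropin-releasing hormone, was at 33.2 CPM in Drug-NIHL and 196 CPM in NIHL (ratio 0.169, 0.130 to 0.219), and Rbp4, a retinol carrier, at 3.49 CPM in Drug-NIHL and 24.6 CPM in NIHL (ratio 0.142, 0.0570 to 0.309), each in fewer than 3% of the cells. The Crhbp ratio was 0.631 in the cells with Dct at least 0.5% of UMIs and 0.0473 without the cells marked by Scrublet.

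Of 11 measured markers of fibrocytes, the cells of the adjoining spiral ligament, 5 were higher and 0 lower. Their median log2 ratio was 0.24, and -0.35 without the cells marked by Scrublet. Otos, the secreted protein otospiralin, had 519 CPM in Drug-NIHL cells and 85.9 CPM in NIHL cells (ratio 6.04, 5.03 to 7.30), against 2.60 in the other cells, and 2.78 in intermediate cells free of markers of other types. Coch, cochlin, stood at 662 CPM in Drug-NIHL cells and 344 CPM in NIHL cells (ratio 1.92, 1.74 to 2.13), against 1.57 in the others. Slc4a11, a borate and water transporter, was at 89.0 CPM in Drug-NIHL cells and 5.32 CPM in NIHL cells (ratio 16.7, 8.33 to 39.2), against 15.4 in the others. Fibrocyte markers summed to 1782 CPM in Drug-NIHL and 1006 CPM in NIHL intermediate cells, and to 3762 CPM in Drug-NIHL and 2685 CPM in NIHL other cells. At least 2 fibrocyte UMIs were found in 197 Drug-NIHL (19.3%) and 80 NIHL (14.9%) intermediate cells. Schwann and satellite glia markers had 3828 CPM in Drug-NIHL and 4201 CPM in NIHL, with 2 UMIs or more in 67.0% of Drug-NIHL and 69.0% of NIHL intermediate cells. Erythroid genes stood at 16430.4 CPM in Drug-NIHL and 15938 CPM in NIHL.

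Transcripts of cells from outside the lateral wall were present too. Ttr, transthyretin, made by the choroid plexus, was at 73.7 CPM in Drug-NIHL cells and 230.3 CPM in NIHL cells (ratio 0.320, 0.265 to 0.386) and in the other cells at 352 CPM in Drug-NIHL and 4449 CPM in NIHL. In the other cells the Ttr ratio was 0.0791 (0.0777 to 0.0806). In Drug-NIHL, 1 intermediate cell held 48.5% of the Ttr UMIs. After thinning Ttr was found in 1.90% (1.09 to 3.07) of Drug-NIHL and 13.7% (10.7 to 17.2) of NIHL cells, and in 2.27% and 13.4% of the other cells. The shares were thus close to those of the other cells, while the level was lower in intermediate cells. In cells free of markers of other types the Ttr ratio was 0.959. Summed neuron markers were at 716 CPM in Drug-NIHL and 448 CPM in NIHL intermediate cells, with a median log2 ratio of 0.70 (1.98 without the cells marked by Scrublet), and hair cell markers at 907 CPM in Drug-NIHL and 555 CPM in NIHL. Endothelial markers stood at 336 CPM in Drug-NIHL and 274 CPM in NIHL, and pericyte markers at 461 CPM in Drug-NIHL and 447 CPM in NIHL. Of 6 osteoblast and osteocyte markers 5 were higher, with a sum of 332 CPM in Drug-NIHL and 168 CPM in NIHL intermediate cells, although in the other cells the sum was 1025 CPM in Drug-NIHL and 2036 CPM in NIHL. Among strial neighbours, basal cell markers were at 291 CPM in Drug-NIHL and 431 CPM in NIHL, marginal cell markers at 84.7 CPM in Drug-NIHL and 112 CPM in NIHL, and spindle and root cell markers at 183 CPM in Drug-NIHL and 113 CPM in NIHL. Cldn11, the basal cell tight junction claudin, was at 107 CPM in Drug-NIHL cells and 226 CPM in NIHL cells (ratio 0.474, 0.401 to 0.561), and its log2 ratio turned to 0.73 in the cells with Dct at least 0.5% of UMIs. How far doublets and free RNA enter the lists of inflammation and the lateral wall genes was not tested.

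Adhesion, matrix and cell cycle genes complete the lists. Of 25 adhesion and matrix genes 1 was higher and 3 were lower, with a median log2 ratio of -0.14. Cd9, a tetraspanin of cell contacts, stood at 562 CPM in Drug-NIHL cells and 848 CPM in NIHL cells (ratio 0.662, 0.612 to 0.716), near its ratio of 0.638 in the other cells. Cd44, the hyaluronan receptor, was at 223 CPM in Drug-NIHL and 234 CPM in NIHL (ratio 0.956, 0.833 to 1.10), and Spp1, osteopontin, at 1727 CPM in Drug-NIHL and 1806 CPM in NIHL (ratio 0.956, 0.910 to 1.004). Of 14 cell cycle genes 5 were higher and 2 lower, with a median of 0.18. Mki67 had 24 CPM in Drug-NIHL and 6.66 CPM in NIHL (ratio 3.61, 1.82 to 7.93) and was found in 1.96% of Drug-NIHL and 0.929% of NIHL intermediate cells, against 1.39% and 0.965% of the other, shallower cells, so no cycling is read from it. Ccnd1, cyclin D1, stood at 20.1 CPM in Drug-NIHL and 35.3 CPM in NIHL (ratio 0.569, 0.375 to 0.861), with a log2 ratio of 0.05 in the cells with Dct at least 0.5% of UMIs.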

How the data were processed

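Each library's deposited matrix gives whole, unscaled UMI counts for every gene and barcode, made by the authors with Cell Ranger 5.0.1 per the file headers. The submitters' processing notes name Cell Ranger 5.0, STAR, Seurat 3.2.2, mm10 and GRCm38 without saying what each did. What called a barcode a cell was not stated; no deposited barcode had fewer than 500 UMIs. The labels put the recovered cells at roughly 20000, beside 21773 barcodes in Drug-NIHL and 18545 in NIHL, of which 20133 and 17423 passed the limits used here.

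Cells were chosen by the rule given above, with the limits on UMIs, genes and mitochondrial share stated there. UMIs were summed over intermediate cells per library and scaled to CPM. Ratios have exact conditional binomial, levels exact Poisson and shares exact binomial (Clopper-Pearson) 95% intervals, all for counting error only; log2 ratios add 0.5 UMI to each sum. Genes needed 20 UMIs in both sums together. With 1 library per group, no p-value or standard error was derived from cells. Steps were tested on simulated data. Scrublet ran in scanpy 1.11.5 at an expected rate of 0.08, and its marked cells were kept. Other software was edgeR 4.0.16 in R 4.3.3 (TMM factors, as an alternative) and scipy 1.17.1, pandas 2.3.3, numpy 2.4.6 and matplotlib 3.10.9 in Python 3.11.15.

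Named genes followed rules: the 10 genes per direction whose interval bound nearest 1 lay furthest from it, where the larger sum reached 20 UMIs; up to 10 per direction among genes in at least 10% of the intermediate cells and 2 times the share of the others, with at most 20% of the UMIs in 1 cell; in each list, up to 2 members per direction, the most abundant member and set pigment, channel and deacetylase genes; and the 20 genes ranked by share against the other cells. Mitochondrially encoded, ribosomal, haemoglobin, sex-linked, immunoglobulin and T cell receptor genes were left out of the first of these. Further members of a list are named where they passed the limits, and some others after their values were seen. The cells, the lists and the rules were chosen with earlier results of these data known. A few genes of these lists are not reported here by name.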

Additional observations from a re-analysis of the deposited data

How the results depend on the processing

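Each gene ratio named as a result, each list median, the counts and the share were recomputed under up to 21 alternatives, apart from genes at 0 in both libraries and the marker genes Kcne1 and Pecam1. The intermediate cell share stayed higher in Drug-NIHL in every setting run apart from the share among cells with Dct given above; its ratio moved to 1.29 among cells with at least 1000 genes and to 1.30 outside the Schwann rule. Counts of higher and lower genes were 1568 and 1024 at a minimum of 10 UMIs, 421 and 241 at 50, 3947 and 2895 with none, 354 and 142 at a ratio of 2, and 564 and 381 without cells holding markers of other types. After seeing the data, counts were also taken for genes found mainly in intermediate cells (1 and 2) and for genes with at least 200 UMIs (44 and 20). Of the gene values 3448 stayed within their counting interval, 356 moved beyond it and 39 turned direction. Log2 ratios that turned were as follows. Without cells marked by Scrublet, the neutrophil list median was -1.87, Prtn3, Elane and Mpo 1.30 each and S100a8 -1.90. Under the stricter rule, Prtn3 was 2.56, Elane 4.15, Cxcl13 1.71 and Mpo 1.71. Without cells holding markers of other types, H2-Ab1 was -0.64, Tyrp1 3.06, Fxyd5 -0.16, Cxcl1 1.68, C1ra 0.94, Aqp1 -0.64, C1qc -3.45, Tgm2 -0.64 and Tmf1 0.44. H2-Ab1, Aqp1 and Tgm2 had equal counts in both libraries there, so -0.64 reflects only the unequal UMI totals. In that setting Camp, Lyz2, Lcn2 and Cd74 shared a ratio of 1.92, which rests on a few UMIs. Without the top cell of each gene, Prtn3 was 2.56, Elane 3.64, Cxcl13 0.98 and Mpo 1.71. After thinning, Kcnk1 was -0.16 and Edn1 -0.12. In settings chosen after seeing the data, with Dct at least 0.5% of UMIs, Prtn3 was 2.11, Elane 4.05, Cxcl13 2.11, Mpo 1.62, Nrg1 -2.29, Gsn 0.33, Cldn11 0.73, Ccnd1 0.0502 and Cdkn1c 0.0908; without cells holding macrophage or neutrophil markers, Ngp was -0.51, Prtn3 3.74, Elane 3.74, Ctsg 3.195, Mpo 4.54 and C1qc -0.95; without cells holding Tyrp1, Pmel was 0.28. Ngp had equal counts in both libraries without cells holding macrophage or neutrophil markers. The cause of the changes was not tested, except that a setting which leaves cells out by a gene's or cell type's UMIs removes the cells that held them. TMM factors were 1.003 in Drug-NIHL and 0.997 in NIHL. No paired analysis was possible because each group is 1 pooled library, and for the same reason no library could be left out.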

Other observations

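Some genes held by at least 10% of the intermediate cells of a library passed the limits without belonging to any list, and they are named after their values were seen. Cdkn1c, an inhibitor of cyclin-dependent kinases, stood at 86.4 CPM in Drug-NIHL cells and 178 CPM in NIHL cells, a ratio of 0.486 (0.402 to 0.586), against 0.785 in the other cells. Tmf1, a Golgi protein, stood at 68.1 CPM in Drug-NIHL and 123 CPM in NIHL (ratio 0.553, 0.444 to 0.688), and Adprh, an ADP-ribosylarginine hydrolase, at 51.9 CPM in Drug-NIHL and 79.9 CPM in NIHL (ratio 0.650, 0.5002 to 0.845). In the other direction, Mgp, the matrix Gla protein, stood at 308 CPM in Drug-NIHL cells and 85.2 CPM in NIHL cells (ratio 3.62, 2.996 to 4.41), against 1.31 in the other cells. Mef2c, a transcription factor, stood at 82.5 CPM in Drug-NIHL and 51.3 CPM in NIHL (ratio 1.61, 1.23 to 2.13), Rufy3 at 105 CPM in Drug-NIHL and 67.9 CPM in NIHL (ratio 1.54, 1.22 to 1.96), and Hmgb2, a chromatin protein, at 107 CPM in Drug-NIHL and 55.9 CPM in NIHL (ratio 1.92, 1.49 to 2.49). The log2 ratio of Cdkn1c was 0.0908 in the cells with Dct at least 0.5% of UMIs, and that of Tmf1 was 0.44 in cells free of markers of other types.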
